A study of Mus musculus with 4 samples.

Results

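The potassium channel genes of the mouse were read as those GENCODE M21 protein-coding genes whose symbol begins with Kcn, which gave 94 of 21951 genes. The measurement was ATAC-seq, in which a transposase cuts accessible DNA and a peak marks a stretch cut more often than its surroundings. For each gene the peaks within 1 kb on either side of any of its transcription starts (promoter peaks) and the merged peak regions in its gene body outside every promoter (distal regions, 732 of 58337 in all gene bodies) were collected by library. Libraries came from tumors that grew from mG7080 cells, a murine glioblastoma sphere culture, injected into the brain of Esm1 knockout (KO) or wild-type (WT) female C57BL/6 mice (C57BL/6J in the study's methods) aged 6 to 8 weeks. The labels and the study's figure legend speak of tumors, whereas its methods name freshly isolated tumor cells. Its results use the names given there to sphere cultures grown from the tumors. The input may thus not hold every cell type of the tumor tissue. Each group had 2 libraries, 1 per mouse, called KO replicate 1 and 2 and WT replicate 1 and 2. The host mouse lacked Esm1 in the KO group, whereas the implanted cells were the same line in both groups, so 1 cell line underlies every value. The product of Esm1 is Endocan, a secreted proteoglycan of blood vessel walls, and the comparison asks whether tumors differed in open chromatin when the host could not make it. The Esm1 promoter itself held no peak in any of the 4 libraries, so the peak lists do not check the host genotype.

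Potassium channels let potassium ions leave or enter cells and set the resting voltage, and most are assembled from pore-forming subunits encoded by a large gene family. Shaker-type and ether-a-go-go subunits open on depolarization, silent voltage-gated subunits act only together with others, inward rectifiers and two-pore domain channels hold the resting voltage, and BK, SK and IK channels respond to calcium. Auxiliary subunits alter trafficking and gating. In brain, astrocytes and related glia take up extracellular potassium through the inward rectifier encoded by Kcnj10, and voltage-gated and calcium-activated channels are also known from glioma cells.

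The KO libraries held 82975 and 85418 peaks, against 63000 and 100088 in the WT libraries. The height of a peak, the number of fragments piled up at its summit, was recovered from the deposited fold and p-value, and the median promoter height was 75 and 87 in KO, against 65 and 87 in WT. WT replicate 1 was the shallowest library, with a genome background of 4.41 fragments, against 6.025 and 6.71 in KO and 6.85 in WT replicate 2. Promoters of the neuronal marker list were mostly open (13 and 14 of 15 in KO, 14 and 14 in WT) and those of the T and NK cell list were open in no library (0 of 11). Of 14 endothelial markers, 3 and 4 were open in KO and 3 and 5 in WT, and Pecam1, Cdh5 and Vwf had no promoter peak. Mature oligodendrocyte markers set WT replicate 1 apart, with 5 and 5 of 12 open in KO, against 10 and 5 in WT. As these are bulk samples, fewer cells of a type and less open chromatin per cell cannot be told apart.

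Most channel promoters were open in every tumor, whether the host was KO or WT. Of the 94 genes, 69 had a promoter peak in all 4 libraries, which is 73.4%, beside 60.6% of all protein-coding genes. No peak was found in any library for 15 of the 94, beside 32.8% of all protein-coding genes. A peak in 1 to 3 libraries was found for 10, beside 6.54% of all. By library, 72 and 76 channel promoters were open in KO, against 71 and 74 in WT. No channel promoter was open in both KO libraries and neither WT library, beside 0.441% of all genes with a promoter peak, and none showed the reverse, beside 0.197%. Set against these low shares, the count of 0 is near the background.

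The open promoters were spread over every class. Shaker-type voltage-gated subunits (Kcna to Kcnd) were open in 15 of 17 genes and the Slo2 and Slo3 group (Kcnt, Kcnu) in 3 of 3. Two-pore domain channels (Kcnk) were open in 10 of 14, silent subunits (Kcnf, Kcng, Kcns, Kcnv) in 8 of 10, ether-a-go-go subunits (Kcnh) in 6 of 8 and Kcnq subunits in 4 of 5. The inward rectifiers (Kcnj) were open in 9 of 15, auxiliary subunits in 8 of 13, BK subunits (Kcnm) in 3 of 5 and the SK and IK group (Kcnn) in 3 of 4. The closed genes included several known from other organs: Kcnj1 of the kidney tubule, Kcnj13 of the choroid plexus and retinal pigment epithelium, Kcnv2 of photoreceptors, Kcnk18 of sensory neurons, Kcnmb1 of smooth muscle, and Kcne1, Kcne2 and Kcne4, partners of voltage-gated channels in the heart. Kcnj14, Kcnj15, Kcnmb3, Kcna10, Kcnrg, Kcnq1 and Kcnn4 were also closed. With windows of 2500 bp the Kcnj1 promoter held a peak in all 4 libraries, so its closed state depended on the window. Kcnn4 encodes the IK channel, which is known from immune cells and from human glioma.

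**Figure D1:**
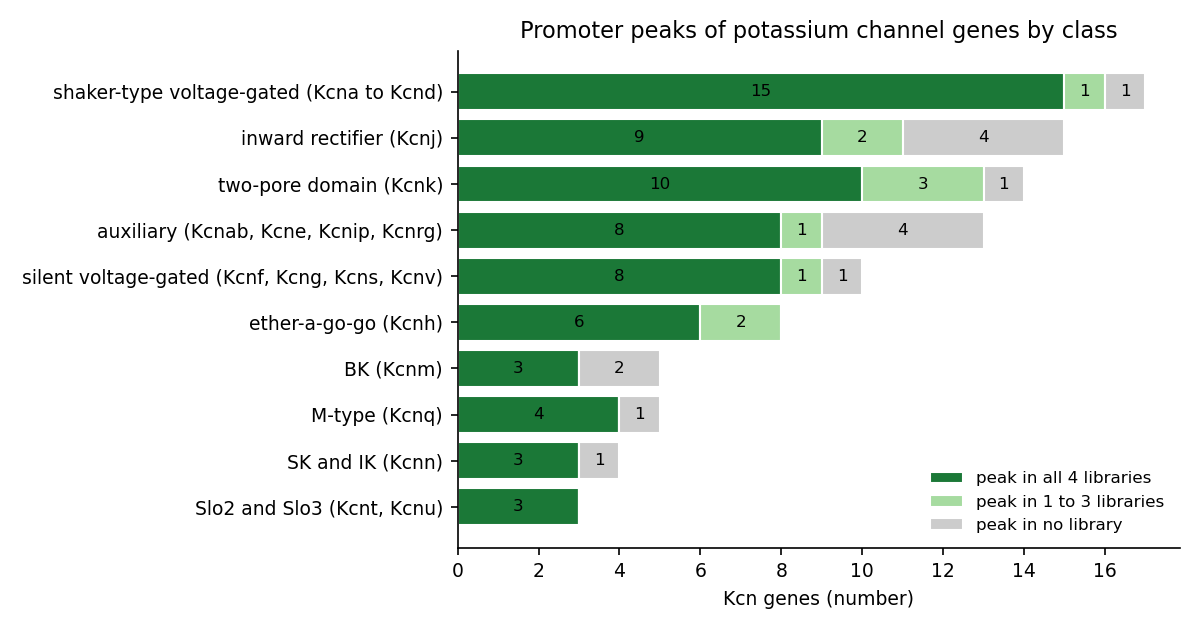
Number of Kcn genes (horizontal axis) in each channel class (vertical axis) with a promoter peak in all 4 libraries, in 1 to 3 libraries or in no library. Shaker-type subunits were open in 15 of 17 genes, while auxiliary subunits and inward rectifiers each held 4 closed genes.

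Open and closed channel promoters differed in sequence as promoters in general did. A window of 500 bp on either side of a start was called CpG-rich where its CG dinucleotides were at least 0.6 of those its base composition gives and its GC content was at least 50%. For each gene the start with the highest such CG ratio was taken, which need not be the start with the peak. By that measure 45 of the 69 open channel promoters (65.2%) were CpG-rich, beside 76.6% of the other open promoters, and 1 of the 15 closed ones (6.67%), beside 3.05% of the other closed promoters. The 250 bases before a start of Kcnab2, a beta subunit of shaker-type channels and 1 of the tallest channel promoters, and of Kcnn4, closed in every library, show the contrast. Both are RefSeq promoter sequences on GRCm38, Kcnab2 at chr4:152477550-152477799 on the minus strand and Kcnn4 at chr7:24370013-24370262 on the plus strand, with each CG in capitals (20 in Kcnab2, 6 in Kcnn4).
Kcnab2: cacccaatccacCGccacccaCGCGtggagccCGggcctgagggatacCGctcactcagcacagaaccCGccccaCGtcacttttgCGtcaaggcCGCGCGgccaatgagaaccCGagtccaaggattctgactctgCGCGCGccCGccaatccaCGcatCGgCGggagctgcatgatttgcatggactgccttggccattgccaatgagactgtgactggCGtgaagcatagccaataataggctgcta
Kcnn4: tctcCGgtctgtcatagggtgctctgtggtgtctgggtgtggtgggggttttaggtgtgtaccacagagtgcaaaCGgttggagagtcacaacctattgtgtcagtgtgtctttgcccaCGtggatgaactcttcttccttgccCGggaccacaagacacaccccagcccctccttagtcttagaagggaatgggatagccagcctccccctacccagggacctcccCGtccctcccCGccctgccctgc

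Kcnq1, a voltage-gated subunit of heart and epithelia, was the exception among the closed genes: its window was CpG-rich (observed over expected CG of 0.75, GC content 68.1%) and yet held no peak. Its gene body (chr7:143106362-143427042) held 12 distal regions, and 3 of them had a peak in each of the 4 libraries. The tallest lay in an intron 189.1 kb from the nearer of its 2 starts, at chr7:143295526-143296953, within 1 kb of a start of the noncoding RNA Kcnq1ot1. Its height was 73 and 87 in KO, against 58 and 82 in WT, so the groups overlapped. Across all channel genes, 11 of the 732 distal regions lay within 1 kb of a noncoding start and 698 had their summit in an intron, 18 in a coding exon and 16 in a UTR exon.

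Channel promoters carried lower peaks than promoters in general. Of the 69 open ones, 11 lay above the median promoter height, beside 49.9% of all promoters, and their median lay at percentile 27.2 of all open promoters. Among the tallest were those of Kcnn2, a calcium-activated SK channel, with heights of 113 and 90 in KO, against 95 and 129 in WT. Kcnab2 had 112 and 91 in KO and 94 and 127 in WT. In both of these genes KO replicate 2 was the lowest library after scaling and the other 3 lay close together. Kcnq3, a subunit of the M-current channel, had 97 and 112 in KO and 98 and 106 in WT, and Kcnj2, a strong inward rectifier, had 79 and 105 in KO and 87 and 104 in WT. At the low end stood Kcnmb2, a BK beta subunit, with 26 and 18 in KO, against 18 and 32 in WT. The Kcnab2 window is shared with that of Nphp4, and that of Kcnu1 with Ash2l, so their peaks cannot be assigned to 1 gene.

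**Figure D2:**
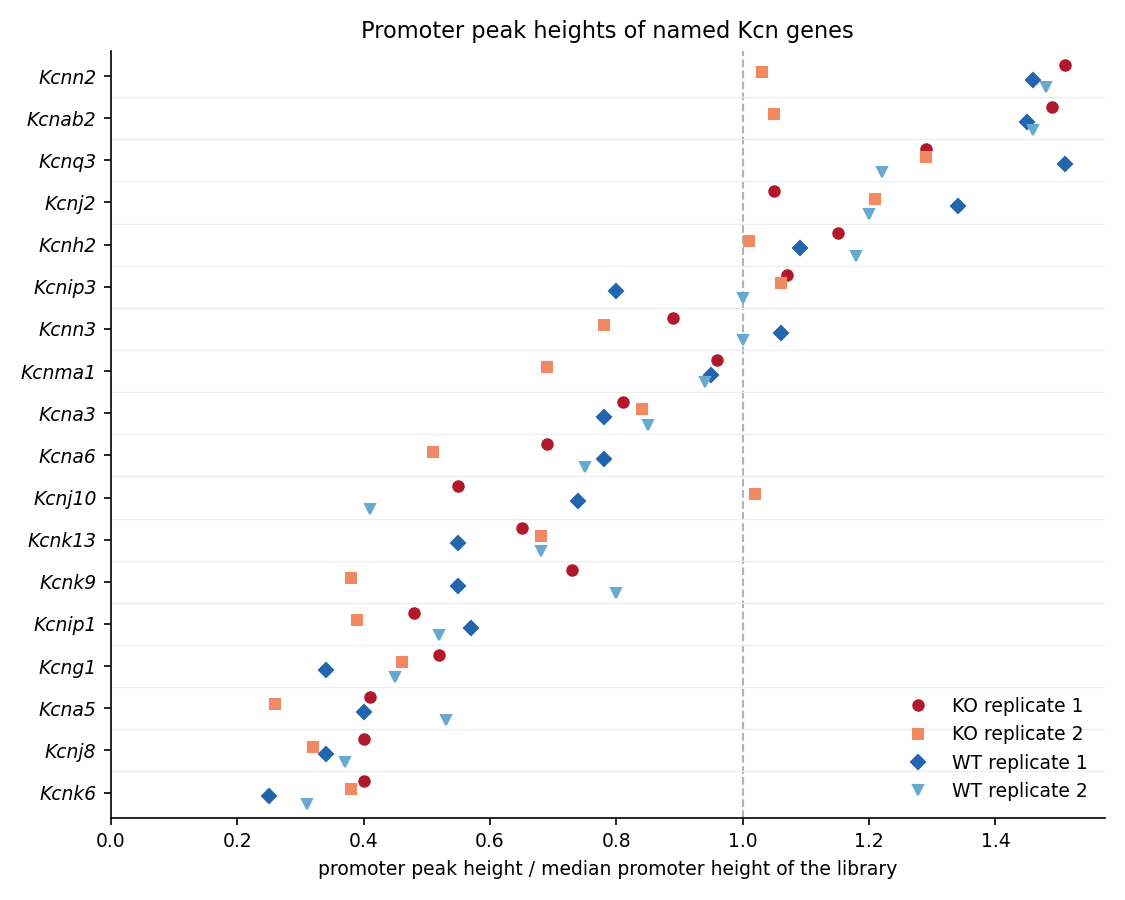
Promoter peak height divided by the median promoter height of the library (horizontal axis) for 18 named Kcn genes (vertical axis, tallest at the top), with 1 symbol per library and KO symbols drawn above WT symbols. Kcnn2, Kcnab2, Kcnq3 and Kcnj2 lie above the median (dashed line) in every library, and Kcnj10 is spread from 0.41 in WT replicate 2 to 1.02 in KO replicate 2.

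No channel promoter was called different in height between KO and WT. In limma on log2 heights centred on each library's median, 0 of the 69 promoters passed an adjusted p of 0.05 in either direction, beside 0.015% of all 13310 promoters higher in KO and 0% lower. At an unadjusted p under 0.05 there was 1 (Kcnn3), beside 3.94% of all promoters. The median log2 difference (KO minus WT) was -0.04 over the channel promoters and 0 over all promoters. It was below 0 for 42 and above 0 for 27 of them, beside 51.4% below 0 among all promoters. Both KO libraries lay above both WT libraries in 8 of the 69 genes, beside 15% of all promoters, and below both in 9, beside 16.2% of all promoters. Leaving out KO replicate 1 gave 3 calls (Kcnj10, Kcnn2 and Kcnab2) in place of 0.

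No class held a called promoter. The median log2 difference was -0.22 for BK subunits, -0.24 for the SK and IK group, -0.13 for the Slo2 and Slo3 group, -0.06 for both the ether-a-go-go and the two-pore domain genes, -0.05 for shaker-type and -0.04 for inward rectifier genes. It was -0.01 for auxiliary, 0.02 for Kcnq and 0.08 for silent subunits. These medians rest on 3 to 15 genes each and were not tested.

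The lowest difference was that of Kcna5, a shaker-type subunit, at -0.48 ± 0.30 (SE, n = 2 per group, limma adjusted p = 0.9985). Its heights were 31 and 23 in KO, against 26 and 46 in WT, and the difference ran from -0.80 (without KO replicate 1) to -0.15 (without KO replicate 2) and was -0.17 with the deposited fold. Kcna6 of the same class had 52 and 44 in KO and 51 and 65 in WT, with a log2 difference of -0.37 ± 0.20 that ran from -0.60 to -0.14 without the same libraries and was -0.12 with the deposited fold. Kcnk9, an acid-sensitive two-pore channel, had 55 and 33 in KO and 36 and 70 in WT (-0.34 ± 0.28), but its tallest peak in KO replicate 2 lay at another site in the window than those of the other libraries, and the difference was -0.18 with windows of 500 bp and -0.03 with 2500 bp. Such a difference of site occurred in 3 of the 69 genes (Kcnk9, Kcnh3 and Kcng4). Kcnip1, a calcium-binding partner of Kcnd subunits, had 36 and 34 in KO and 37 and 45 in WT (-0.33 ± 0.25, and -0.01 with the deposited fold). Kcnn3, an SK channel (chr3:89520164-89675132), had 67 and 68 in KO and 69 and 87 in WT (-0.30 ± 0.14, limma unadjusted p = 0.0398, adjusted p = 0.9985), and a difference of -0.09 with the deposited fold. After scaling, the groups of Kcna6, Kcnip1 and Kcnn3 did not overlap, and those of Kcna5 and Kcnk9 did.

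The highest difference was that of Kcnk6, a two-pore channel, at 0.49 ± 0.30, with heights of 30 and 33 in KO, against 16 and 27 in WT, where the lowest height called was 13 to 16 by library. Kcng1, a silent subunit, had 39 and 40 in KO and 22 and 39 in WT (0.33 ± 0.27). Kcnip3, a calcium sensor of the Kcnip group, had 80 and 92 in KO and 52 and 87 in WT (0.25 ± 0.14). In Kcnk6, Kcng1 and Kcnip3 the lowest scaled value was that of WT replicate 1, the shallowest library; without it the differences were 0.32 in Kcnk6, 0.12 in Kcng1 and 0.08 in Kcnip3.

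**Figure D3:**
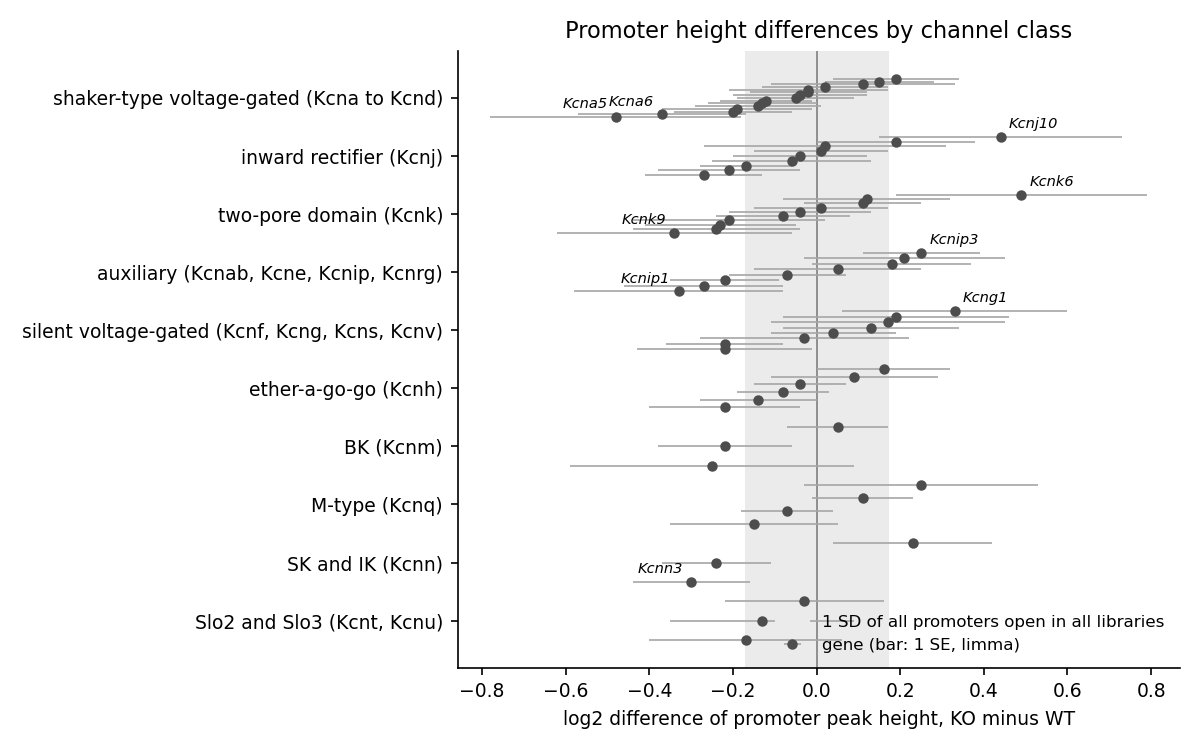
Log2 difference of promoter peak height (KO minus WT, horizontal axis) for the 69 Kcn genes open in all libraries, by channel class (vertical axis), with bars of 1 SE from limma and a grey band of 1 SD (0.17) over all promoters. Kcnk6 (0.49) and Kcnj10 (0.44) lie furthest right and Kcna5 (-0.48) furthest left, with no gene past the adjusted threshold.

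Among genes taken for their known cell type or role, Kcnma1, Kcnh2, Kcna3, Kcnk13 and Kcnj8 had no called difference in height either. Kcnj10 and Kcnj16, also taken for their role, are given below. Kcnma1, the pore of the BK channel and known from glioma cells, had 72 and 60 in KO and 62 and 82 in WT (-0.22 ± 0.16). Kcnh2, an ether-a-go-go channel, had 86 and 88 in KO and 71 and 103 in WT (-0.08 ± 0.11). In both genes the groups overlapped after scaling. Kcna3, known from T cells and microglia, had 61 and 73 in KO and 51 and 74 in WT (0.02 ± 0.15). Kcnk13, known from microglia, had 49 and 59 in KO and 36 and 59 in WT (0.12 ± 0.20). Both were open although 9 of 14 microglia and macrophage markers, Csf1r and Cx3cr1 among them, had no promoter peak in any library. Kcnj8, known from pericytes, had a low peak of 30 and 28 in KO and 22 and 32 in WT (0.02 ± 0.29), beside mural markers, a list that holds Kcnj8 itself, open in 5 and 7 of 13 genes in KO and 4 and 8 in WT.

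KO replicate 2 stood apart from the other libraries over the channel promoters. Its scaled height was the lowest of the 4 libraries in 38 of the 69 promoters (55.1%), beside 30.9% of all promoters and 28.5% of all promoters below the median height. KO replicate 1 was the lowest in 4 promoters (5.8%) and the highest in 26 (37.7%, beside 19.9% of all promoters). The 2 KO libraries thus lay apart from each other in many channel promoters, which widened the spread within KO. Over the 263 distal regions found in all libraries, KO replicate 2 was the lowest in 104 (39.5%), beside 32.2% of all distal gene-body regions. The summed scaled height of the 15 neuronal markers was 13.4 and 11.0 in KO, against 13.1 and 13.3 in WT, lowest in the same library, with Slc17a7 closed in all libraries. A marker without a peak in a library added nothing to the sum. The part of neuronal cells in the channel promoters was not tested.

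Kcnj10 went the other way, with its tallest peaks in KO replicate 2. It encodes the glial inward rectifier that clears potassium (chr1:172341210-172374085), and its promoter height was 41 and 89 in KO, against 48 and 36 in WT. KO replicate 2 was the highest and the groups overlapped, with a log2 difference of 0.44 ± 0.29 (limma, unadjusted p = 0.147, adjusted p = 0.9985). The 250 bases before its start, from RefSeq on GRCm38 at chr1:172340960-172341209 (plus strand), are shown with their 17 CG in capitals.
Kcnj10 promoter: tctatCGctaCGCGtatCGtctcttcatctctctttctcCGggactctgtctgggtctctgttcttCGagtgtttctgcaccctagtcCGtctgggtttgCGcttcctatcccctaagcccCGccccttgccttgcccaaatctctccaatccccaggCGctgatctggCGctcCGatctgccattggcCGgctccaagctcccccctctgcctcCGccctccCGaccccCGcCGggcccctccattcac

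The intron of Kcnj10 repeated the pattern of libraries. The region 1.68 kb past the start (chr1:172342557-172343285) had heights of 40 and 86 in KO, against 46 and 27 in WT, with a log2 difference of 0.62 ± 0.25 (limma, unadjusted p = 0.0119, adjusted p = 1). Divided by the median region height of each library, these were 0.98 and 2.0 in KO, against 1.53 and 0.54 in WT, so the groups overlapped. The region 8.89 kb past the start (chr1:172349563-172350653) had 41 and 105 in KO, against 65 and 43 in WT. Divided by the median region height of each library, the values there were 1.0 and 2.44 in KO, against 2.17 and 0.86 in WT. KO replicate 2 and WT replicate 1 were thus both high, and KO replicate 1 and WT replicate 2 both low. A further region 17.8 kb past the start was found in KO replicate 2 alone, whereas that at 16.5 kb was alike in all libraries (scaled height 0.71 and 0.77 in KO, 0.73 and 0.70 in WT). The stretch around the summit of the tallest intron region, at chr1:172350026-172350176 on the plus strand, is shown as the tallest peak in the intron; the capitals mark a match to ACAATGG, a SOX-type motif, found within 100 bases of the summit in 0.76% of the 263 distal channel regions and 1.7% of all distal gene-body regions.
Kcnj10 intron: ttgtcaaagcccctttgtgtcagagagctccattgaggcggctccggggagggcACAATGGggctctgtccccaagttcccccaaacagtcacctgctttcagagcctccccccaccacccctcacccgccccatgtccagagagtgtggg

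**Figure D4:**
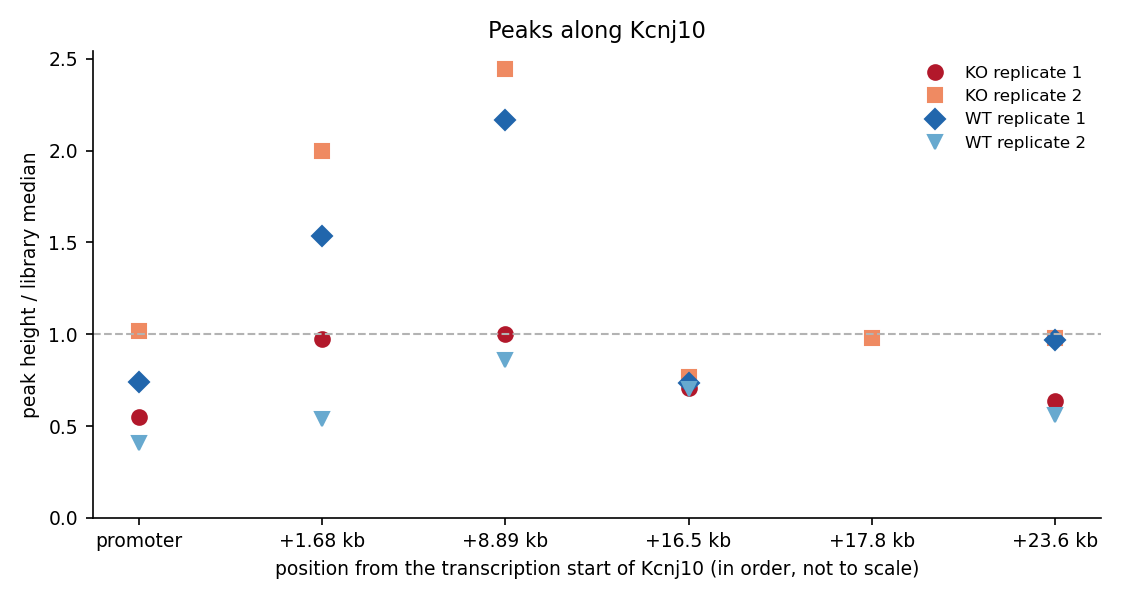
Peak height divided by the median height of the library (promoters by the promoter median, intron regions by the region median; vertical axis) for the promoter and 5 intron regions of Kcnj10 in order of distance from its start (horizontal axis), with 1 symbol per library. KO replicate 2 and WT replicate 1 lie highest at 8.89 kb (2.44 and 2.17), and the region at 17.8 kb has a peak in KO replicate 2 alone.

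Kcnj16, whose subunit pairs with that of Kcnj10 in glia and kidney, had a promoter peak of height 48 in KO replicate 2 and none in the other libraries. It lay at chr11:111022846-111023644, before an internal start of the gene (chr11:110968033-111027968), and the bases around its summit at chr11:111023036-111023186 (plus strand) are given as the site of the difference. None of the motifs searched was found in this stretch.
Kcnj16 promoter: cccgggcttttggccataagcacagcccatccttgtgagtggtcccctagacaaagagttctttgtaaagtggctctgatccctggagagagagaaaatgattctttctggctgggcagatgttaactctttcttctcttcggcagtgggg

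Markers of glia were uneven over the same libraries. Of 12 astrocyte markers, 8 and 9 had a promoter peak in KO, against 8 and 8 in WT, and their summed scaled height was 4.52 and 6.0 in KO, against 4.0 and 4.45 in WT, with Aqp4 and Gjb6 closed in all libraries. Of 11 oligodendrocyte precursor markers, 7 and 9 were open in KO and 8 and 6 in WT, with summed heights of 4.16 and 6.3 in KO, against 4.83 and 3.6 in WT, and Cspg4 and Nkx2-2 closed. For 12 mature oligodendrocyte markers the sums were 2.81 and 3.03 in KO, against 6.29 and 2.92 in WT, with Aspa among those closed. A marker without a peak in a library added nothing to these sums, so they mix presence and height. Over the 5 mature oligodendrocyte markers open in all libraries, the median scaled height was 0.56 and 0.56 in KO, against 0.78 and 0.57 in WT. The part of these glial cells in the Kcnj10 and Kcnj16 peaks was not tested. The deposited fold over the local background was nearly level at the Kcnj10 promoter (4.12 and 3.89 in KO, 4.48 and 3.82 in WT), and the local background was 1.53 and 3.3 times the genome background in KO, against 2.25 and 1.27 times in WT. Height and local background thus followed the same order over the libraries, so the level fold does not show that the heights were alike. What made both uneven was not tested.

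The calls on Kcnj10 and on the tallest promoters depended on KO replicate 1. Without it, limma, with KO replicate 2 as the sole KO library, called Kcnj10 higher (log2 difference 0.89, adjusted p = 0.00833) and Kcnn2 (-0.51, adjusted p = 0.0138) and Kcnab2 (-0.47, adjusted p = 0.0291) lower. These were 3 of 229 calls among 13388 promoters. Without KO replicate 2 the log2 difference of Kcnj10 was -0.02, that of Kcnn2 0.03 and that of Kcnab2 0.04.

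The other 9 genes with a promoter peak in 1 to 3 libraries had low peaks. Kcns1, a silent subunit, had 33 and 32 in KO, against 22 and no peak in WT. Kcnk7, a two-pore subunit, had 26 and 32 in KO, against no peak and 32 in WT, and Kcna7 had 24 and no peak in KO, against no peak and 23 in WT. Kcnh8, an ether-a-go-go subunit, had no peak and 21 in KO, against 18 and 23 in WT. The remaining genes had a single peak: Kcnh6 of height 24, Kcnk16 of 25 and Kcne1l of 23 in KO replicate 2, and Kcnk15 of 25 and Kcnj5 of 22 in WT replicate 2. All were 33 or lower, where the median promoter height was 65 to 87 by library, and a missing peak sets only an upper limit to the height.

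The number of distal regions in channel gene bodies did not differ between KO and WT tumors beyond the spread between libraries once the size of each peak list was taken into account. The 94 genes held 732 merged regions, 480 and 449 of them found in the KO libraries, against 357 and 617 in the WT libraries. Per 1000 peaks of a library there were 5.81 and 5.4 channel peaks in KO, against 5.78 and 6.15 in WT. The mean difference was -0.363 (2-sided exact permutation test over the 4 libraries, p = 0.667, where the smallest p that 2 against 2 allows is 0.33). With peaks of a −log10 q of at least 5 the difference was 0.158. Channel genes held 7.04 distal regions per 100 kb, beside 5.61 over all protein-coding genes.

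A few long genes held much of this. Kcnma1 held 71 regions, Kcnip4, a Kcnd partner, 48, Kcnh1, an ether-a-go-go channel, and Kcnq5, an M-type subunit, 38 each, and Kcnj6, a G protein-gated rectifier, 36, which together made 31.6% of all. By library, Kcnma1 had 46 and 44 regions in KO, against 38 and 59 in WT, and Kcnip4 had 30 and 21 in KO, against 12 and 41 in WT. In each of these genes the WT libraries held both the lowest and the highest number, except in Kcnj6, which had 28 and 24 in KO, against 27 and 34 in WT. Per length the order differed, with 14.5 regions per 100 kb in Kcnj6, 11.9 in Kcnh1, 9.79 in Kcnma1, 6.74 in Kcnq5 and 4.23 in Kcnip4. The gene bodies of 24 channel genes held none.

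**Figure D5:**
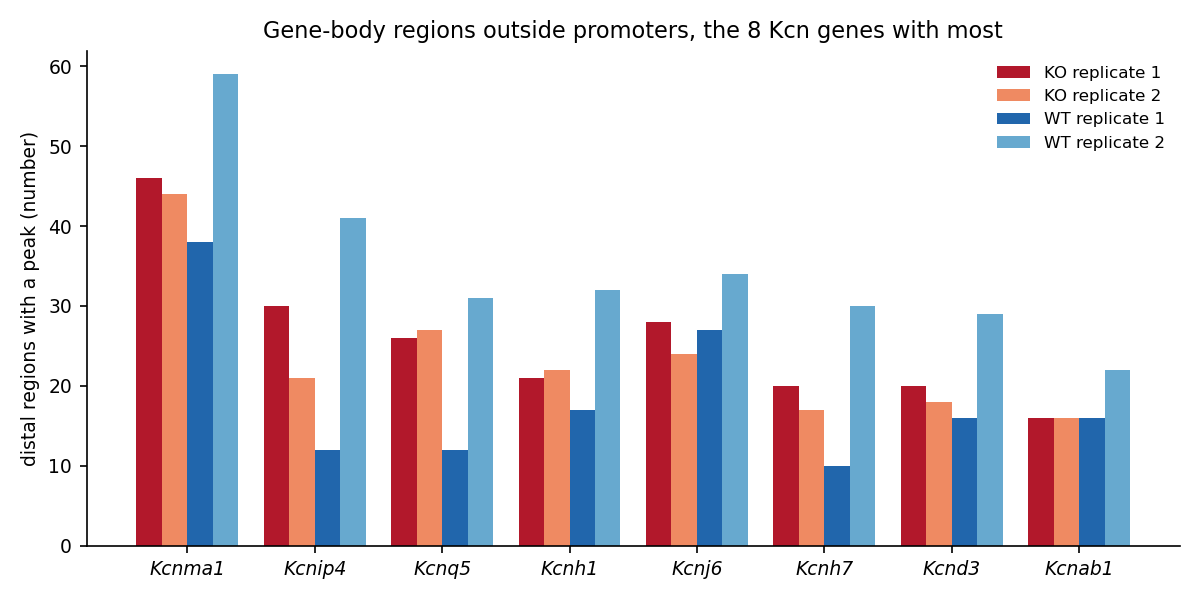
Number of distal regions with a peak (vertical axis) in each library for the 8 Kcn genes with the most such regions (horizontal axis), KO bars left of WT bars. WT replicate 2 has the highest bar in every gene shown (59 in Kcnma1), and WT replicate 1 the lowest or joint lowest in all but Kcnj6. Kcnip1 ties with Kcnab1 at 29 regions and is not shown. It has 15 and 14 in KO, against 18 and 23 in WT, so WT replicate 1 is not the lowest there.

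The regions found in all libraries held no called difference in height. There were 263 (35.9% of 732, beside 32.4% of distal regions in all gene bodies), and 0 passed an adjusted p of 0.05 in limma, beside 0.0374% of all 48089 regions higher in KO and 0.00208% lower. At an unadjusted p under 0.05 there were 10, beside 3.08% of all regions and 3.18% of distal gene-body regions, and their adjusted p was 1. The median log2 difference was -0.03 over the channel regions and -0.01 over distal gene-body regions. Both KO libraries lay above both WT in 36 of the 263 regions, beside 13.7% of all distal gene-body regions, and below both in 46, beside 16.2%. Of the 10, the lowest was a region of Kcnb2, a delayed rectifier, 298.2 kb from the nearer of its 2 starts (chr1:15610216-15610923), with 30 and 24 in KO, against 34 and 52 in WT (-0.76 ± 0.27). A region of Kcnq5 (chr1:21600606-21601056) had 34 and 40 in KO, against 13 and 35 in WT (0.67 ± 0.27), and a region of Kcnq3 (chr15:66199255-66200238) had 45 and 49 in KO, against 17 and 46 in WT (0.63 ± 0.27). Divided by the median region height, the values were 0.83 and 0.93 in KO, against 0.43 and 0.7 in WT, at Kcnq5 and 1.1 and 1.14 in KO, against 0.57 and 0.92 in WT, at Kcnq3. Both WT libraries thus lay below both KO libraries, with WT replicate 1 the lower.

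Of the distal regions, 12 were found in both KO and neither WT library (1.64%, beside 1.61% of all gene-body regions) and 11 in both WT and neither KO library (1.5%, beside 1.83%). Both shares lay near the background. The KO-only regions lay in Kcnq5, Kcnh6, Kcnma1, Kcnip2, Kcnt1, Kcnh7, Kcnip3, Kcnn3, Kcnk3, Kcnip4, Kcnd2 and Kcnu1, with heights of 18 to 49. The tallest was in Kcnip3 (chr2:127507786-127508578), at 27 and 49 in KO. The WT-only regions included those in Kcnip1, Kcnma1 (3 regions), Kcnk9, Kcnj6 (2 regions), Kcnn3, Kcnab2 and Kcnd2, and the 11 had heights of 14 to 45. Kcnma1, Kcnn3 and Kcnd2 thus held regions of both kinds.

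The calls were unstable. With peaks of a −log10 q of at least 5, none of the 12 KO-only regions kept its call and 3 of the 11 WT-only regions did. Changes of promoter width, promoter set and transcripts left the merged regions as they were, so they could not alter a call. Only changes of threshold, list length and coverage could. Wider windows and more transcripts did take some regions out of the distal set. KO-only regions in that set numbered 11 with windows of 2500 bp and 10 with all annotated transcripts. WT-only regions numbered 10 under each of these. A region taken out was still counted as keeping its call. Under all 7 changes of threshold, list length, promoter width, coverage, promoter set and transcripts, 2 WT-only regions kept the call. These lay in introns of Kcnma1, 147.7 kb from the nearest of its 8 starts (chr14:23502393-23502847, heights 20 and 38 in WT), and of Kcnj6, 91.3 kb from the nearest of its 4 starts (chr16:94765225-94765467, 26 and 40 in WT). The KO-only regions of Kcnip4 (chr5:48584621-48584898, 22 and 24 in KO) and Kcnd2 (chr6:21488492-21488891, 22 and 26 in KO) kept it under 6 of the 7. Both lost it with peaks of a −log10 q of at least 5. A WT-only region of Kcnip1 (chr11:33721274-33721719) also kept it under 6 of the 7, losing it with equal numbers of peaks. The bases around the summits of the Kcnip4, Kcnd2, Kcnma1 and Kcnj6 regions are shown as the best kept within each kind, KO-only or WT-only. They lie on the plus strand at chr5:48584692-48584842, chr6:21488723-21488873, chr14:23502420-23502570 and chr16:94765309-94765459. Capitals mark matches on either strand to the motifs TTGGCA (a short NFI site), CATATG (an E-box) and ACAATGG (SOX) and to the core of the CTCF motif.
Kcnip4, KO-only: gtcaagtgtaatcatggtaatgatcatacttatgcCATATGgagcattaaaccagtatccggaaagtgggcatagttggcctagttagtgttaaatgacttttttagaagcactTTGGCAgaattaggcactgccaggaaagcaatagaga
Kcnd2, KO-only: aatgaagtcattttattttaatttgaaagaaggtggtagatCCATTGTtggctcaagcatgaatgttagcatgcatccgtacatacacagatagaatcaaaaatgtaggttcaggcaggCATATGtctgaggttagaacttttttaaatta
Kcnma1, WT-only: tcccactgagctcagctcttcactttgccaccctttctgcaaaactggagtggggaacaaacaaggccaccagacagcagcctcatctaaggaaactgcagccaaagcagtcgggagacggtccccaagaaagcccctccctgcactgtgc
Kcnj6, WT-only: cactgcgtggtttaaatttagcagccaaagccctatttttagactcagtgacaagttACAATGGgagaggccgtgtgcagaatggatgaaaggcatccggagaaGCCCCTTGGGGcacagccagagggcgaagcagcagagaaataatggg

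These motifs were counted on both strands within 100 bases of each summit. AP-1 (TGANTCA) was found in 16.3% of the 263 distal channel regions and 13.3% of all distal gene-body regions, CATATG in 6.46% and 5.96%, TTGGCA in 17.1% and 16.4%, the CTCF core in 4.94% and 3.62%, and the E-box CAGCTG in 16% and 18.3%. At promoters AP-1 was found in 0 of the 69 channel genes, beside 2.46% of all open promoters, and the CTCF core in 5.8%, beside 9.41%. The octamer ATGCAAAT was found in 1.9% of the channel regions and 1.75% of all. The long RE1 site of REST (up to 4 mismatches), a repressor known for neuronal channel genes, was found in 1 channel promoter (Kcng1), 1.45%, beside 0.428% of all. The Rest promoter itself had heights of 39 and 71 in KO, against 41 and 42 in WT (0.24 ± 0.24).

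Partners of the channels were also open without a called difference. Of 45 genes listed by role (accessory subunits of other names, anchoring proteins, calmodulins and G protein subunits, potassium and chloride transporters, hyperpolarization-activated channels and Rest), 40 had a promoter peak in all libraries, beside 60.6% of all protein-coding genes. None was KO-only or WT-only, beside 0.441% and 0.197% of all genes with a promoter peak, so the count of 0 is near the background. In height, 0 passed an adjusted p of 0.05 in either direction (beside the same 0.015% and 0%), and the median log2 difference was -0.03. At an unadjusted p under 0.05 there were 2 of the 40, beside 3.94% of all promoters. Slc12a4, a potassium and chloride cotransporter, had 32 and 83 in KO, against 31 and 27 in WT (0.73 ± 0.33), with KO replicate 2 the highest, as at the Kcnj10 promoter. Atp1b2, a glial sodium pump subunit, had 48 and 60 in KO, against 57 and 82 in WT (-0.45 ± 0.16), with all KO values below WT after scaling.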

How the data were processed

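ATAC-seq peak lists of 4 tumors (2 KO, 2 WT) were used as deposited by the authors. Per the labels they were made with MACS2 and HOMER on mm10 (GRCm38), without stated versions. The study's methods name another caller, and no source used here gives a read shift for the transposase. The deposited columns hold a fold (ratio) over local background, −log10 p and −log10 q, and a display score, which was not used. Depth per library is not given. Heights were recovered as whole numbers from the deposited fold and −log10 p (MACS2 adds 1 to height and background); 2 of 331481 were off by more than 0.001. They cover counting at the summit only. Peaks of the 4 libraries sharing at least 1 base were merged into 122166 regions, 48089 of them with a peak in every library.

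Promoters were windows of 1000 bp around starts of the GENCODE M21 basic annotation. A feature entered limma (version 3.58.1, R 4.3.3, trend, Benjamini-Hochberg over all features) only with a peak in all 4 libraries, on log2 heights minus library medians, so a feature absent from 1 group has no fold. Scripts were tested on simulated data. P-values and SE from limma rest on 2 tumors per group. The spread of each feature is drawn towards that of all features of similar height. An SE can thus be smaller than the spread between the tumors at that feature. The members, gene lists and tests were chosen with earlier results of these data known. Named genes were those uneven in presence, past a threshold, with the 5 highest and 5 lowest differences, the 5 tallest promoters, the 5 with most distal regions, and 10 chosen by role; single regions singled out beyond this were chosen after their values were seen. Some genes that this rule takes are not reported here. RefSeq promoters (GRCm38) matched 69 of 94 genes. Alternatives covered threshold, list length, window, overlap, scaling, variance, pairing and left-out libraries.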

Additional observations from a re-analysis of the deposited data

How the results depend on the processing

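Channel promoters open in all libraries, distal shares and the absence of called heights held under most alternatives. Counts that moved did so as follows. KO-only channel promoters numbered 0, and 1 with equal numbers of peaks, with 500 bp windows or with all annotated transcripts, and 0 to 4 with a library left out; WT-only ones 0 to 2. Distal regions in all libraries numbered 163 with peaks of −log10 q 5 or more only, and 148 under a minimum coverage of 50% of the region by each library. KO-only regions numbered 6 at that q. With a library left out, its group is judged by 1 library, so KO-only and WT-only become looser calls, for promoters as for regions. Under those looser calls KO-only regions ranged from 16 to 103 and WT-only regions from 24 to 143. The share of channel peaks turned to 0.158 per 1000 at that q. Among channel partners, KO-only genes numbered 1 at that q, and 0 to 1 with a library left out.

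Scaling by genome background shifted the median of all promoters by -0.11 and of all regions by -0.1, and the channel medians to -0.15 for promoters and -0.13 for distal regions; relative to that shift they differ little from the main values. With the deposited fold the channel promoter median was 0.07. With a library left out it ranged from -0.15 to 0.05, called promoters from 0 to 1 higher and 0 to 2 lower, and called distal regions from 0 to 1 higher; the lone library of a group is then assumed to vary like the others.

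Signs of single promoters turned as follows. With the deposited fold, differences were 0.05 (Kcnab2), 0.16 (Kcnq3), 0.01 (Kcnh2) and 0.07 (Kcnma1). With genome background scaling they were -0.09 (Kcna3) and -0.08 (Kcnj8), and with quantile normalization -0.01 for both. With a library left out, the ranges that crossed 0 were -0.82 to 0.14 (Kcnk9), -0.02 to 0.89 (Kcnj10), -0.51 to 0.03 (Kcnn2), -0.47 to 0.04 (Kcnab2), -0.22 to 0.07 (Kcnq3), -0.05 to 0.07 (Kcna3), -0.17 to 0.01 (Kcnh2), -0.13 to 0.18 (Kcnj8), -0.04 to 0.27 (Kcnk13) and -0.46 to 0.02 (Kcnma1), with calls only for Kcnj10, Kcnn2 and Kcnab2 without KO replicate 1. The causes were not tested.

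Replicate numbers were not taken as pairs, and the deviations of KO replicate 1 and WT replicate 1 had a correlation of -0.204. With 2 libraries per group this value cannot show whether tumors of the same number shared a batch. With the replicate number as a block, channel calls stayed at 0 for promoters and distal regions in both directions, with medians of -0.04 and -0.03, and calls over all features were 12 promoters and 10 regions, against 2 and 19 without it. With crossed numbers as a block, chosen after seeing the data, 35 promoters and 101 regions were called, 0 of them in channel genes. Peak lists keep only what passed the caller, so a missing peak limits height to about 13 to 16 fragments or the local threshold; smaller differences were not detectable at this depth.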
